A study of Homo sapiens with 4 samples.

Results

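The oxidative phosphorylation genes described here are the protein-coding genes of GENCODE release 29 whose symbols name subunits of respiratory complexes I to V or proteins that share their symbol stems, chosen by a pattern of symbols, with read-through genes left out. They number 110 of the 34500 genes with a matched transcript, 13 of them mitochondrially encoded and 97 nuclear. The nuclear members were 83 subunits (37 of complex I, 4 of complex II, 8 of complex III, 17 of complex IV and 17 of complex V), 8 assembly factors of complex I and 6 other proteins. NDUFA4 was counted with complex IV, where its protein is found. CYC1, a subunit of complex III, has a symbol outside the pattern and was not a member. The cells were MCF10A, human mammary epithelial cells that grow as an immortal but non-tumorigenic line, and all carried a stably expressed scramble shRNA, so no library is from unmodified cells. The TGF-β1 group had 5 ng/ml of this cytokine in the medium for 1.5 h, and the control group was taken at 0 h, with 2 libraries in each group. The sample labels call them biological duplicates but do not say what a replicate number marks, so p-values measure only the spread between these libraries.

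The respiratory chain passes electrons through complexes I to IV to oxygen and pumps protons across the inner mitochondrial membrane, and complex V, the ATP synthase, uses the proton gradient to make ATP. Complex II is the only one of them built from nuclear gene products alone. The others combine nuclear subunits, imported as proteins, with subunits made from mitochondrial DNA, which is transcribed by its own polymerase into long RNAs that are cut into the separate messages. In mammary epithelium, TGF-β1 acts through SMAD transcription factors, which work in the nucleus.

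The libraries held 40461473 and 35737659 estimated counts in TGF-β1 replicates 1 and 2, and 40792300 and 36693330 in control replicates 1 and 2. SMAD7, an early TGF-β target, was at 129 and 100.1 CPM (counts scaled to library size) in the TGF-β1 libraries, against 8.58 and 8.27 CPM in the controls. Replicates 2 differed widely from replicates 1 in treated and control cells alike. The mRNA of the histone demethylase PHF8, which the labels' protocol names, was at 3.998 and 3.88 CPM in TGF-β1 and control replicates 2, against 19.99 and 20.2 CPM in replicates 1. The basal keratin KRT17 was at 2393 and 2122 TPM (a level corrected for transcript length) in replicates 2, against 4259 and 3752 TPM in replicates 1. Basal mammary markers were otherwise present throughout, with KRT5 at 2023 to 2385 TPM, KRT14 at 275 to 329 TPM and TP63 at 23.6 to 30.9 TPM. The luminal markers listed were mixed. The keratins KRT8 and KRT18 were at 146.3 to 236 TPM and 347 to 454 TPM. ESR1 was at 1.09 to 1.37 TPM and PGR at up to 0.0211 TPM. Markers of blood and vessel cells were near 0 (PTPRC up to 0.387 TPM, PECAM1 up to 0.860 TPM), apart from CD14 at 22.6 to 35.9 TPM, and the fibroblast genes COL1A2 and PDGFRA were under 0.4 TPM. The third fibroblast gene listed, COL1A1, was at 8.77 and 4.4 TPM in the TGF-β1 libraries against 2.97 and 1.99 TPM in the controls.

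Most nuclear subunits were abundant messages. Of the 83, 69 had a mean of over 100 TPM, 9 lay between 1 and 100 TPM, and 5 were under 1 TPM. The median level over tested nuclear subunits was 255 and 242 TPM in the TGF-β1 libraries and 245 and 242 TPM in the controls. All genes tested had a median of 12.6 TPM as a mean over libraries. By complex, the median of the subunits' mean levels was 180 TPM in complex I, 197 TPM in complex II, 388 TPM in complex III, 492 TPM in complex V and 620.2 TPM over the 12 tested subunits of complex IV. The highest was COX7C of complex IV at 1180 ± 109 TPM (SD, n = 4 libraries over both groups, also for the following). UQCRQ of complex III followed at 952 ± 18.4 TPM, and ATP5F1B, the catalytic beta subunit of the ATP synthase, at 896 ± 49.7 TPM. The 8 assembly factors, which help to put complex I together and leave it again, had a lower median of 51.9 TPM.

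**Figure D1:**
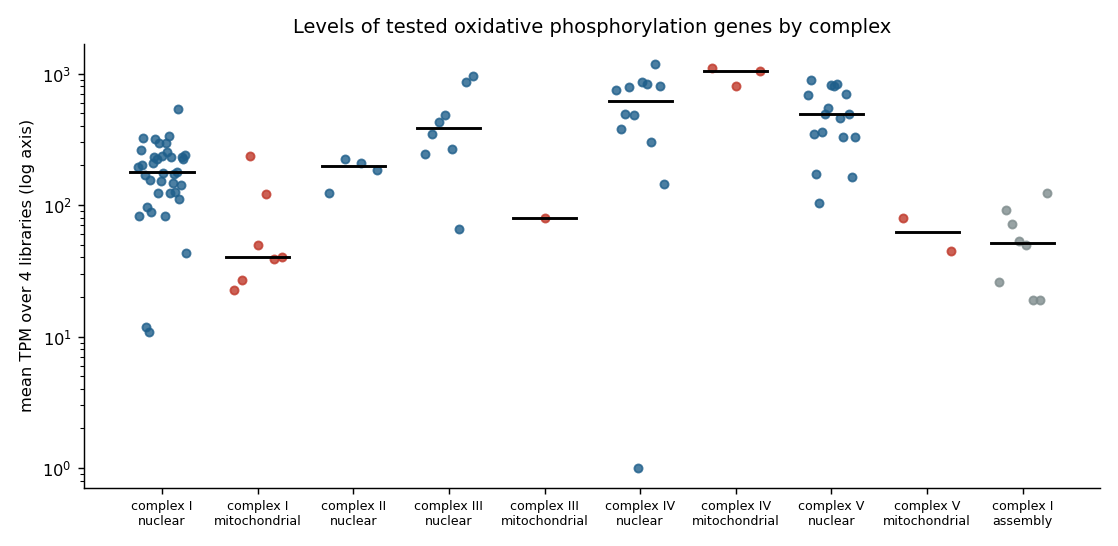
Mean TPM over the 4 libraries (log axis) for each tested subunit and complex I assembly factor, grouped by complex and by nuclear or mitochondrial origin, with black lines at the medians. The nuclear subunits of complex I centre on 180 TPM, while the mitochondrially encoded ones of complex I centre on 39.9 TPM and those of complex IV on 1053 TPM.

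Among the alternative forms of complex IV subunits, the broadly expressed one held nearly all of the message. COX4I1, COX6A1, COX7A2, COX7B and COX8A were at 746 ± 9.16, 796 ± 53.0, 829 ± 42.8, 299.6 ± 8.70 and 808 ± 42.6 TPM. Their partners COX4I2, known from lung, COX6A2, known from heart and skeletal muscle, and COX7B2 had no count in any library. COX7A1, the muscle form, had 5 and 6 counts in the TGF-β1 libraries and 0 and 8 in the controls, and COX8C had 1.5 estimated counts in TGF-β1 replicate 2 and 0 elsewhere. COX6B1 was at 482 ± 13.2 TPM and COX6B2, known from testis, at 1.01 ± 0.330 TPM. NDUFA4 was at 144 ± 7.64 TPM, and NDUFA4L2, a hypoxia-induced relative of it, at 0.747 ± 0.249 TPM. The UQCRH gene of complex III had 862 ± 77.3 TPM and its intronless relative UQCRHL 0.404 ± 0.117 TPM. Their coding sequences, both of 273 bases, differ at 4 bases (98.5% identical), so the split of reads between them is uncertain.

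The proton-carrying c ring of the ATP synthase is encoded by 3 genes on different chromosomes, all of them well expressed. ATP5MC1 was at 362 ± 7.86 TPM, ATP5MC2 at 495 ± 41.6 TPM and ATP5MC3 at 546 ± 21.6 TPM. In the GENCODE transcripts with most counts, a stretch of 231 coding bases spells the same 77 residues in all 3 genes, while the bases themselves are 88.3% identical between ATP5MC1 and ATP5MC2 and 80.1% between ATP5MC3 and either of them. The first 60 bases of the stretch are given because they show what lets reads of the 3 genes be told apart, with capitals at the 18 positions where the genes differ:
ATP5MC1: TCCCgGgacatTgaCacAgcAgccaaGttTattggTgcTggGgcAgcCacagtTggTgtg
ATP5MC2: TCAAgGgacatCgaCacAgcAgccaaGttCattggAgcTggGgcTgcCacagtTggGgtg
ATP5MC3: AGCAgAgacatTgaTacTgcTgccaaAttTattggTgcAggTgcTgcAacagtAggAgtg
All of these differences are silent, since the residues are the same.

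A few levels depend on how transcripts were assigned. NDUFA6 and NDUFA3 of complex I had the lowest tested nuclear levels of their complex, at 10.8 and 11.8 TPM on the primary assembly. Transcripts of the same symbols on alternate loci brought NDUFA6 to 91.1 and 73.7 TPM in the TGF-β1 libraries and to 75.3 and 80.4 TPM in the controls. They brought NDUFA3 to 18.2 and 17.8 TPM in the TGF-β1 libraries and to 18.5 and 24.2 TPM in the controls. Of 107 members with counts, 49 had over 90% of them on 1 transcript, and 24 had over 20% on transcripts not annotated as protein coding. Annotated pseudogenes of the nuclear members held counts equal to only 0.141% to 0.186% of the members' own.

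The 13 mitochondrially encoded members took 0.194% and 0.236% of gene counts in TGF-β1 replicates 1 and 2 and 0.213% and 0.246% in control replicates 1 and 2. The 97 nuclear members took 1.27% and 1.36% in the TGF-β1 libraries and 1.26% and 1.38% in the controls. The 95% Wilson intervals of these shares, which cover counting error only, spanned 0.192% to 0.195%, 0.235% to 0.238%, 0.212% to 0.215% and 0.244% to 0.248% for the mitochondrial members in the same order. In both groups the mitochondrial share was higher in replicate 2 than in replicate 1. No other mitochondrial gene was listed in the tables, so ribosomal and transfer RNAs of this genome do not enter these shares.

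Levels per length varied widely along the mitochondrial genome. How far library preparation or the assignment of reads shaped these levels, or the mitochondrial share of counts, was not tested. MT-CO1, which holds the oxygen-reducing site of complex IV, and MT-CO3, another of its core subunits, averaged 1104 ± 80.2 and 1053 ± 96.3 TPM, and MT-CO2 801 ± 60.4 TPM. MT-ND3 of complex I followed at 236 TPM and MT-ND4L at 121 TPM as means over libraries. MT-CYB of complex III was at 70.8 and 87.6 TPM in the TGF-β1 libraries and 77.6 and 85 TPM in the controls. MT-ND1 was the lowest, at 19.0 and 25.9 TPM in the TGF-β1 libraries and 19.9 and 25.7 TPM in the controls. In each of the 4 libraries the 3 complex IV genes were above all other mitochondrial members. MT-CO1 was above MT-CO3 in every library, by less than the spread of either over libraries as a mean, and the difference was not tested.

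**Figure D2:**
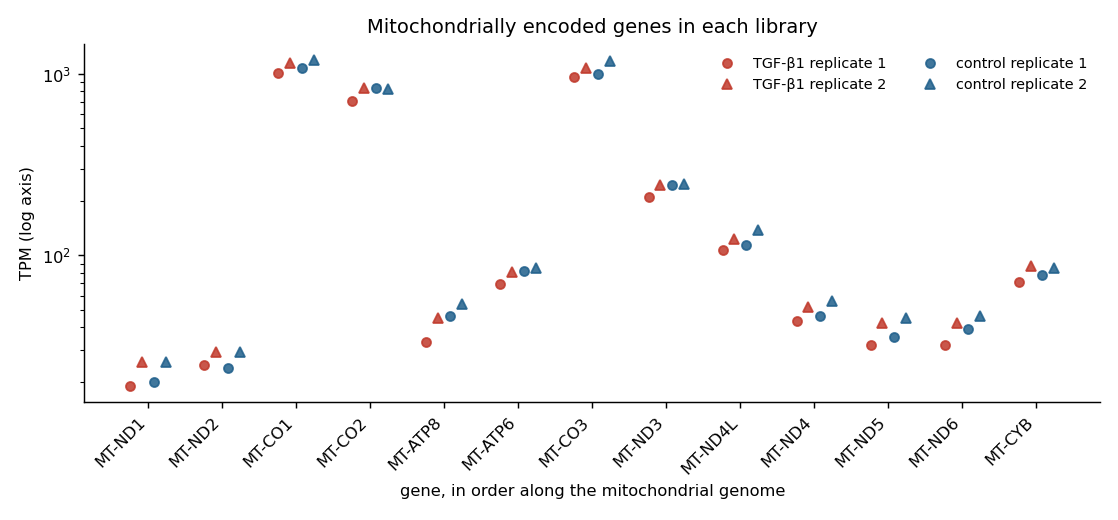
TPM (log axis) of the 13 mitochondrially encoded genes in each library, in their order along the mitochondrial genome, with TGF-β1 libraries in red and controls in blue, circles for replicate 1 and triangles for replicate 2. The 3 complex IV genes stand between 711 and 1186 TPM, and every other gene lies below 250 TPM.

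Some mitochondrial genes share bases, so their counts are not independent. MT-ATP8 and MT-ATP6, both parts of the ATP synthase membrane domain, overlap by 46 bases on the plus strand, at chrM:8527-8572 of GRCh38, and MT-ND4L and MT-ND4 overlap by 7 bases at chrM:10760-10766. The shared stretches are printed because reads inside them fit both genes:
MT-ATP8 and MT-ATP6: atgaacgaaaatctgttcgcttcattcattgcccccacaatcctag
MT-ND4L and MT-ND4: atgctaa
Each begins with the start codon of the second gene and holds the end of the first.

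The comparison of TGF-β1 with control asks whether these genes respond within 1.5 h. None of the 104 members that could be tested passed the threshold, a Benjamini-Hochberg adjusted p under 0.05 in edgeR's quasi-likelihood test, and none had an unadjusted p under 0.05. The same test called 0 of all 14774 genes tested (0%), with 255 at an unadjusted p under 0.05. Even SMAD7, 13.6-fold higher with TGF-β1, was not called by it (edgeR adjusted p = 0.0888, DESeq2 adjusted p = 5.25e-47). The lack of calls by edgeR therefore does not show that members did not respond. DESeq2's Wald test, which called 0.554% of the genes it tested (91), called 0 of 106 members. The 6 members that edgeR did not test, namely COX4I2, COX6A2, COX7A1, COX7B2, COX8C and ATP5MGL, were at or near 0 counts. Of the 78 nuclear subunits tested, 76 had a DESeq2 95% interval within 2-fold in either direction and 74 within 1.5-fold, and of the 13 mitochondrial members 12 and 6 did. These intervals are from the fit without the replicate number, so they also take in the difference between replicate numbers. Changes inside them were not detectable in that fit. With the replicate number as a term (the replicate block), edgeR called 335 of all genes tested and 0 members.

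The estimates themselves were small. Over nuclear subunits the median log2 fold change of TGF-β1 over control was 0.03, with 61 of 78 above 0, beside a median of -0.0054 over all genes tested and 7046 of 14774 above 0. Over mitochondrial members the median was -0.08, with 11 of 13 below 0. Between same-numbered libraries the nuclear median was 0.03 in replicates 1 and 0.02 in replicates 2, and the mitochondrial one -0.14 and -0.04. With the replicate block they were 0.03 and -0.09. Across nuclear subunits the differences in these 2 pairs correlated at -0.40, against 0.24 over all genes tested. The sign was the same in both pairs for 47 of 78 nuclear subunits, 9 of 13 mitochondrial members and 8109 of 14774 genes. With 1 library left out at a time, which leaves the replicate numbers unbalanced between the groups, the nuclear median ran between -0.0063 and 0.08 and the mitochondrial one between -0.24 and 0.04, turning sign without control replicate 1 or TGF-β1 replicate 2 for the nuclear subunits, and without TGF-β1 replicate 1 or control replicate 2 for the mitochondrial genes. The ratio of mitochondrial to nuclear member counts was 0.152 and 0.174 in the TGF-β1 libraries, against 0.170 and 0.178 in the controls. An exact two-sided permutation test gave p = 0.667, and 0.333 is the smallest p that 2 libraries against 2 allow.

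By complex, the median log2 fold changes of nuclear subunits lay between 0.01 and 0.04. The largest estimate of any member was that of MT-ATP8, at 1.59 and 2.09 CPM in the TGF-β1 libraries against 2.21 and 2.73 CPM in the controls, from 62 and 72 counts against 88 and 100.0. Its log2 fold change was -0.43 ± 0.32 (SE), with an unadjusted p of 0.251 by edgeR. NDUFA11, a membrane-arm subunit of complex I, was at 78.5 and 87.6 CPM in the TGF-β1 libraries against 73.8 and 78.2 CPM in the controls, a log2 fold change of 0.13 ± 0.12. NDUFA7, also of complex I, was at 47.6 and 55.7 CPM in the TGF-β1 libraries against 47.7 and 46.2 CPM in the controls, so its groups overlapped.

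In NDUFA11, NDUFC2 and COX6B1 both TGF-β1 libraries were above both controls, which is 3 of 104 members (2.88%) where 7.87% of all genes tested did the same. In NDUFA3, MT-ATP8 and MT-ND3 both were below, 3 of 104 members (2.88%) against 8.34% of all genes. In all other tested members the groups overlapped, as in COX4I1 of complex IV, with 295 and 317 CPM in the TGF-β1 libraries and 288 and 304 CPM in the controls.

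**Figure D3:**
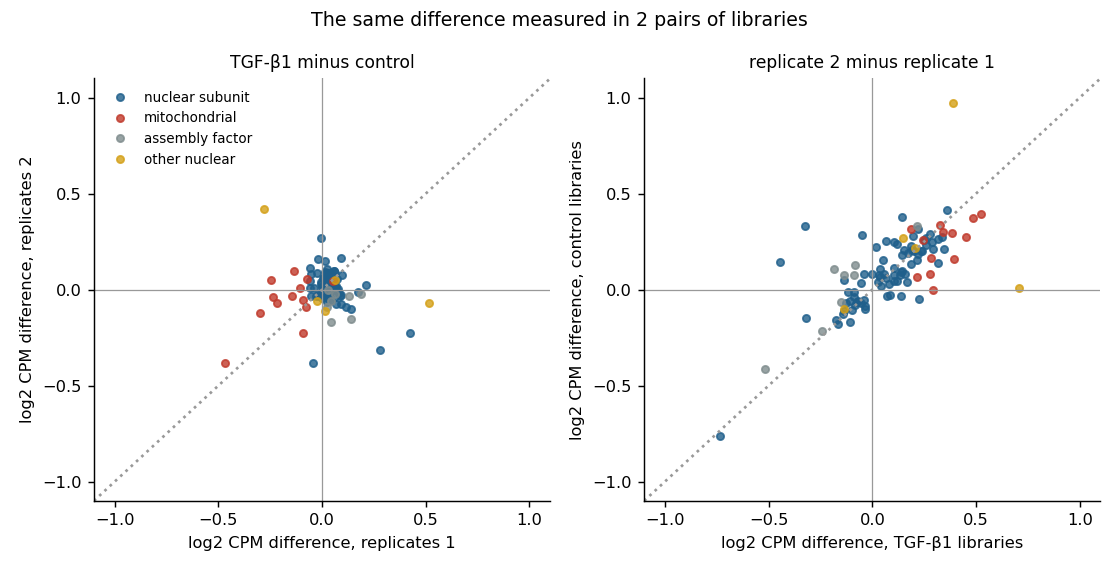
Differences in log2 CPM for each tested member in 2 pairs of libraries: left, TGF-β1 minus control in replicates 1 (horizontal) and replicates 2 (vertical); right, replicate 2 minus replicate 1 in the TGF-β1 libraries (horizontal) and the controls (vertical), with the dotted line at equality. On the left most points crowd around 0; on the right NDUFS5 lies far to the lower left and 12 of the 13 mitochondrial genes in red are positive on both axes.

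The comparison of replicate 2 with replicate 1, with treatment as a term in the model, asks how far these genes differ between the library numbers that differed at PHF8 and KRT17. Of 104 members, 44 (42.3%) passed edgeR's threshold, where 44.9% of all genes tested did, so the share of members called is near the background. Of the 104, 38 (36.5%) were called higher in replicate 2, against 19.9% of all genes, and 6 (5.77%) lower, against 25% of all genes. DESeq2 called 12 members higher and 2 lower, all of them among the 44, where it called 9.63% of all genes higher and 16.9% lower. Its share of members called higher, 11.65%, is thus near that of all genes. Of all 104 members 88 had the same sign in the TGF-β1 pair and the control pair, and of all 14774 genes 12133 did. All 44 called members did, which the test favours, because its error is the disagreement between these pairs. The count rested on all libraries: in each of 4 fits with 1 library left out, edgeR called fewer members, and fewer of all genes too. Of the 44, 6 passed in all 4 of these fits and 16 in none. The differences were small: 1 called member, NDUFS5, differed by over 1.5-fold. On log2(TPM + 1), limma called 16 members higher and 9 lower, so the split is less one-sided there. Of all genes it called 1371 higher and 2730 lower.

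**Figure D4:**
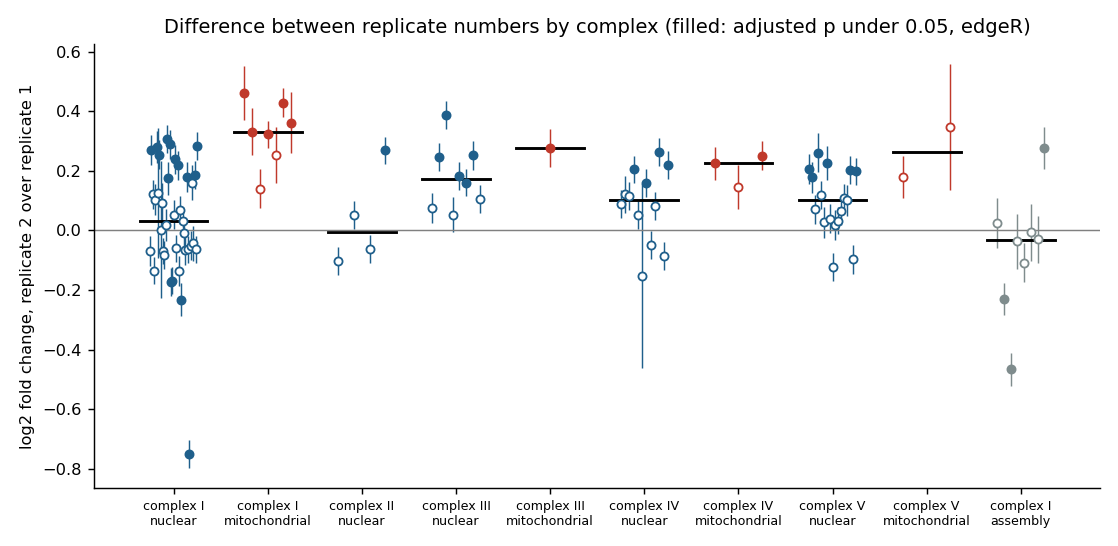
Log2 fold change of replicate 2 over replicate 1 for each tested subunit and assembly factor, with its standard error, grouped by complex and origin; filled points passed edgeR's threshold, open points did not, and black lines are medians. NDUFS5 at -0.75 is the lowest point, the 8 plotted nuclear subunits of complex III all lie above 0, and so do the 13 mitochondrial genes.

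All 13 mitochondrial members had a positive estimate, also under every alternative run except DESeq2 without TGF-β1 replicate 1, where MT-CO2 did not. Of them edgeR called 8 higher (61.5%) and none lower, where it called 19.9% of all genes higher and 44.9% in all. The median log2 fold change of the 13 was 0.28. DESeq2 called 3 of them higher (23.1%), MT-ND5, MT-CO1 and MT-CO3, against 9.63% of all genes. MT-ND5, a proton-pumping subunit of complex I (chrM:12337-14148), was at 54.9 and 56.2 CPM in TGF-β1 and control replicates 2, against 39.2 and 43.4 CPM in replicates 1. The groups did not overlap, the log2 fold change was 0.43 ± 0.05 (edgeR adjusted p = 0.000674), and it passed without any one library. MT-ND1, which sits where the arms of complex I join, was at 15.96 and 15.3 CPM in replicates 2 against 11.1 and 11.7 CPM in replicates 1, a log2 fold change of 0.46 ± 0.09 (edgeR adjusted p = 0.0064, DESeq2 adjusted p = 0.102). MT-CO2, MT-ND3, MT-ND4L, MT-ATP6 and MT-ATP8 were not called. The ratio of mitochondrial to nuclear member counts was 0.174 and 0.178 in replicates 2, against 0.152 and 0.170 in replicates 1, with an exact permutation p of 0.333, the smallest possible. Taken by complex against nuclear subunits, it was higher in both replicates 2 than in both replicates 1 for complexes I, III and IV. In complex V these overlapped, at 0.00708 and 0.00743 in TGF-β1 and control replicates 2 against 0.00631 and 0.00771 in replicates 1. On TPM they overlapped in complexes IV and V. In bulk RNA, more mitochondrial transcripts per cell and more cells rich in mitochondria cannot be told apart.

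In complex I the nuclear subunits went both ways, with 11 higher, 4 lower and 22 not called of 37, so 40.5% were called, near the 44.9% of all genes. NDUFS5, a small subunit on the intermembrane-space side (chr1:39026318-39034636), was at 117 and 111 CPM in TGF-β1 and control replicates 2, against 196 and 188 CPM in replicates 1. Both replicates 2 were thus far below both replicates 1, a log2 fold change of -0.75 ± 0.05, 1.68-fold lower (edgeR adjusted p = 6.94e-05, DESeq2 adjusted p = 7.52e-17). Both of its annotated coding transcripts were lower. The shorter one had 228 and 226 TPM in replicates 2 against 343 and 327 TPM in replicates 1, and the longer one 180.1 and 162 TPM against 359.6 and 343 TPM.

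NDUFV3, an accessory subunit of the NADH-oxidising module, was at 71.3 and 71.7 CPM in replicates 2 against 58.8 and 58.7 CPM in replicates 1, with a log2 fold change of 0.28 ± 0.05 (edgeR adjusted p = 0.00302, DESeq2 adjusted p = 0.0523). NDUFB1 and NDUFB11, single-pass membrane subunits, had log2 fold changes of 0.31 and 0.29. NDUFC1, NDUFB2 and NDUFB3 were the other lower subunits, at -0.23, -0.17 and -0.17.

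Of the 8 assembly factors, 2 were lower and 1 was higher, 37.5% in all, below the 44.9% of all genes. NDUFAF3, which acts early in building the peripheral arm (chr3:49020459-49023495), was at 30.2 and 31.4 CPM in replicates 2 against 43.2 and 41.9 CPM in replicates 1. This is a log2 fold change of -0.47 ± 0.06 (edgeR adjusted p = 0.000805, DESeq2 adjusted p = 0.00288). Retained-intron transcripts held a varying part of its counts, 40.1% and 63.2% in TGF-β1 and control replicates 2 and 53.2% and 43.4% in replicates 1. NDUFAF2, a late assembly factor, was lower at -0.23 and NDUFAF8, which works with NDUFAF5, higher at 0.28.

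In complex II, SDHD, a membrane anchor of succinate dehydrogenase, was at 195 and 183 CPM in replicates 2 against 159.8 and 154 CPM in replicates 1, a log2 fold change of 0.27 ± 0.05 (edgeR adjusted p = 0.00378, DESeq2 adjusted p = 0.0119). SDHA, the flavoprotein, SDHB, the iron-sulfur subunit, and SDHC, the other anchor, were not called, with log2 fold changes of -0.10, 0.05 and -0.06.

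All 8 nuclear subunits of complex III among the members, which leave out CYC1, had a positive estimate. EdgeR called 5 higher (62.5%) and none lower, where it called 19.9% of all genes higher and 44.9% in all. DESeq2 called 3 of the 8 higher (37.5%) and none lower, against 9.63% of all genes higher. On log2(TPM + 1) by limma 6 of 8 were positive, with UQCR10 and UQCRC1 below 0, and UQCRC1 was also below 0 without TGF-β1 replicate 2. UQCRB, a subunit near the quinone-binding site, was at 196 and 199.5 CPM in replicates 2 against 153 and 149.6 CPM in replicates 1, a log2 fold change of 0.39 ± 0.05 (edgeR adjusted p = 0.000844, DESeq2 adjusted p = 7.29e-05). Of its counts, 28.6% and 34.1% in TGF-β1 and control replicates 2, and 31.3% and 31.98% in replicates 1, lay on transcripts not annotated as protein coding. UQCRH, the hinge protein, UQCR11, UQCRC2, a core protein, and UQCRFS1, the Rieske iron-sulfur protein, were the others called, at 0.25, 0.25, 0.18 and 0.16.

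Of the 12 tested nuclear subunits of complex IV, 4 were called higher and none lower, 33.3% in all against 44.9% of all genes. COX7C, a small membrane subunit, was at 326 and 323 CPM in replicates 2 against 273 and 268 CPM in replicates 1, a log2 fold change of 0.26 ± 0.05 (edgeR adjusted p = 0.00405, DESeq2 adjusted p = 0.00536). COX4I1 was not called, with a log2 fold change of 0.09. COX7A2L, which links complexes III and IV into supercomplexes, was higher at 0.21.

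Of 17 nuclear subunits of complex V, 6 were called higher and none lower, 35.3% in all against 44.9% of all genes. ATP5F1A, the alpha subunit of the catalytic head, was at 1004 and 994 CPM in replicates 2 against 882 and 849.9 CPM in replicates 1, a log2 fold change of 0.21 ± 0.05 (edgeR adjusted p = 0.0161, DESeq2 adjusted p = 0.018). ATP5F1B, its partner, had 0.18. Of the c ring genes only ATP5MC2 was called, at 0.23, while ATP5MC1 and ATP5MC3 had 0.03 and 0.04, and the differences among the 3 were not tested. ATP5IF1, the inhibitor of the enzyme's reverse reaction, was higher at 0.21.

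**Figure D5:**
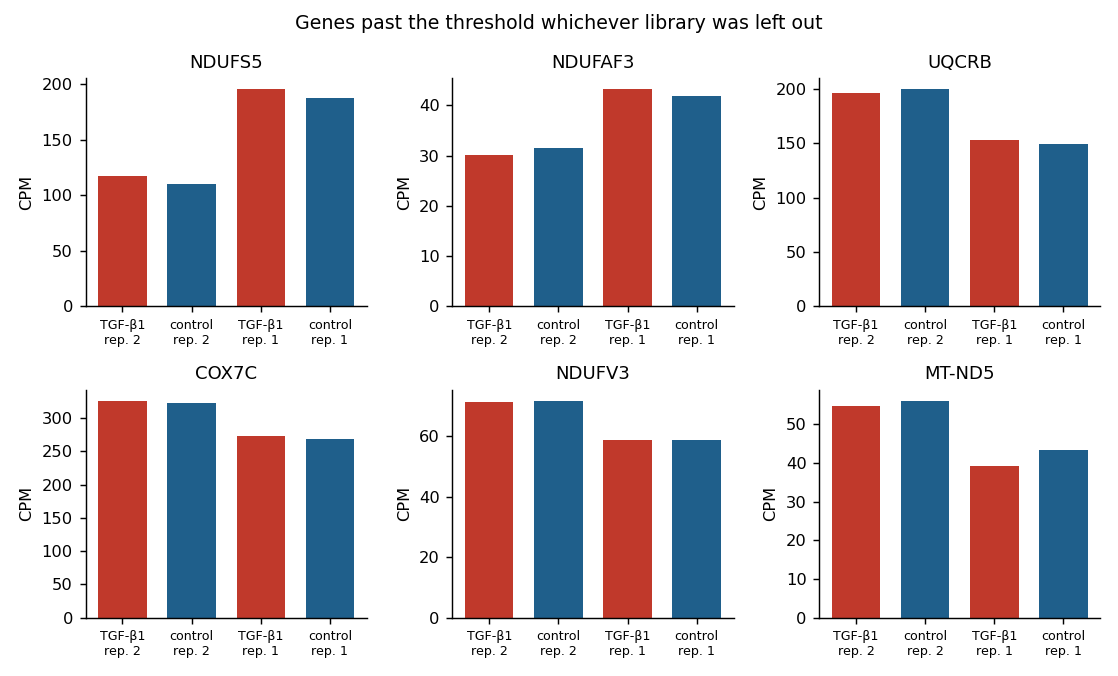
CPM in each library (bars from 0) of the 6 members that passed edgeR's threshold in all 4 fits with 1 library left out, TGF-β1 libraries in red and controls in blue, replicates 2 left of replicates 1. NDUFS5 and NDUFAF3 are lower in both replicates 2, while UQCRB, COX7C, NDUFV3 and MT-ND5 are higher.

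Over nuclear subunits the median log2 fold change between replicate numbers was 0.09, and over all genes 0.0062. The nuclear median depended on the unit, being 0.02 on log2(TPM + 1) by limma. PHF8, KRT17 and library size moved with the replicate number as well, and their part in these differences was not tested.

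Other genes of the pathway were taken from 9 lists. In the TGF-β1 comparison edgeR called none of their members. DESeq2 called 1, TFEB, a transcription factor of lysosomal genes, at 29.7 and 25.9 CPM in the TGF-β1 libraries against 10.8 and 13.9 CPM in the controls (DESeq2 adjusted p = 0.00268, 2.27-fold, edgeR adjusted p = 0.782). With the replicate block edgeR called it as well (adjusted p = 0.0058). Between replicate numbers, where edgeR called 19.9% of all genes higher and 25% lower, 44.9% in all, several of the lists were near this background. It called 16 of 76 mitochondrial ribosomal proteins higher and 11 lower, and 4 of 22 complex IV assembly genes higher and 5 lower. In the list for mitochondrial DNA, transcription and RNA maturation, 4 of 28 genes were higher and 11 lower, among them POLG, the replicative polymerase, at 91.4 and 91.7 CPM in replicates 2 against 123 and 118 CPM in replicates 1. Of 14 tricarboxylic acid cycle genes 2 were higher and 5 lower, with citrate synthase CS at 180.2 and 173 CPM in replicates 2 against 229 and 227 CPM in replicates 1. The lists for complex I assembly outside the pattern, complex II and III assembly, ATP synthase assembly, cytochrome c and coenzyme Q, and regulators of nuclear genes for mitochondrial proteins had 2, 1, 0, 4 and 4 members called higher and 3, 1, 0, 3 and 5 called lower, of 11, 10, 4, 13 and 17 tested. COQ8A, a kinase-like protein of coenzyme Q synthesis, was at 105 and 98.5 CPM in replicates 2 against 51.6 and 47.1 CPM in replicates 1. PPARGC1A, the coactivator PGC-1α, was low throughout, at 2.78 and 2.24 CPM in replicates 2 against 0.358 and 0.680 CPM in replicates 1.

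RefSeq promoters (GRCh38.p14, 250 bases before to 50 bases after the start) matched 78 of the 97 nuclear members and were searched on both strands for 3 motifs of factors known from nuclear respiratory genes. The NRF1 motif GCGCATGCG was in 11 of 78 (14.1%), against 2.76% of 15842 protein-coding promoters and 2.10% of all 27305 promoters. The ETS motif CCGGAAGT, which GABP binds, was in 10 of 78 (12.8%), against 6.19% of protein-coding and 4.44% of all promoters. The YY1 motif AAGATGGC was in 11 of 78 (14.1%), against 3.91% and 3.03%. The NRF1 letters are nearly the same on both strands, so matches on the strands overlap. At least 1 of the 3 motifs was in 29 of 78 (37.2%), against 11.9% of protein-coding and 8.93% of all promoters. No comparison of these shares was tested.

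Of the members called higher in replicate 2, the 4 with the largest difference and a match before the start are printed, 5′ to 3′ on the gene's strand, with the motif letters of either strand in capitals:
SDHD (chr11:112086748-112086817, plus strand, NRF1 and ETS): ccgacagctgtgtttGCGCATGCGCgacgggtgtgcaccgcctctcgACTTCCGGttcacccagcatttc
UQCRH (chr1:46303636-46303673, plus strand, ETS): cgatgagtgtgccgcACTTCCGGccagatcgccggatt
UQCR11 (chr19:1605557-1605594, minus strand, ETS): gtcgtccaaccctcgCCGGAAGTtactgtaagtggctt
ATP5MC2 (chr12:53676101-53676139, minus strand, NRF1): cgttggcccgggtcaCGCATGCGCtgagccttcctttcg
Among the 68 nuclear subunits with a promoter, those with and without a motif had median log2 fold changes between replicate numbers of 0.06 and 0.09 for NRF1, 0.11 and 0.07 for ETS, and 0.05 and 0.10 for YY1. Their median levels were 210 and 238 TPM for NRF1, 493 and 225 TPM for ETS, and 180 and 244 TPM for YY1.

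The YY1 letters mostly lay just after the start and on the gene's own strand, in 9 of the 11 members that held them (81.8%), with the first base of the motif 11 to 39 bases into the transcript. Of 619 protein-coding promoters with the motif, 55.7% had it in that place. The member of highest mean level in each complex with such a match is printed with the motif in capitals:
NDUFA9, complex I (chr12:4649113-4649142, plus strand): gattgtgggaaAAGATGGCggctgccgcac
SDHB, complex II (chr1:17054004-17054033, minus strand): cgtcaggagccAAGATGGCggcggtggtcg
UQCRC1, complex III (chr3:48609605-48609634, minus strand): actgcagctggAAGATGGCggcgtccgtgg
ATP5PO, complex V (chr21:33915755-33915777, minus strand): ccgcccgggagAAGATGGCtgcc
The motif letters themselves hold an ATG, so every match does. ATP5PO was called higher in replicate 2, at 0.20, and NDUFA9, SDHB and UQCRC1 were not called, at -0.08, 0.05 and 0.05.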

How the data were processed

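Total RNA was made into stranded, ribosomal-RNA-depleted paired-end libraries per the labels' protocols, although the labels' molecule field says polyA RNA. Per the submitters' processing notes, the authors used kallisto and GRCh38; the version is not given in the sources used here. Deposited tables hold estimated counts and TPM values per transcript, per the file headers. Transcripts were matched to GENCODE release 29 by identifier (159239 of 173259), and estimated counts and TPM were summed per gene; unmatched transcripts held 2.24% to 2.38% of counts. Summed estimated counts were rounded.

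Tests were edgeR 4.0.16 quasi-likelihood fits in R 4.3.3 (TMM scaling, filterByExpr, 14774 genes, Benjamini-Hochberg adjustment, threshold 0.05), with treatment alone, or replicate number with treatment as a term. Standard errors are fold change over the square root of F, an approximation. DESeq2 1.42.0 and limma 3.58.1 on log2(TPM + 1), with a pseudocount of 1, were alternatives, beside RLE scaling, other filters, library sizes without mitochondrial genes, each library left out, the replicate block and a threshold of 0.01. The tests were tried on simulated data with the same spread for every gene. In the TGF-β1 comparison those data held no difference between replicate numbers, so the trial does not show how the tests perform on these libraries. Members, lists and motifs were chosen with earlier results of these data known. Named genes are all mitochondrial members, per complex the 2 nuclear subunits of highest TPM and of largest fold change in each comparison, the alternative subunit forms, and up to 3 genes per list; other genes named were chosen after their values were seen.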

Additional observations from a re-analysis of the deposited data

How the results depend on the processing

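No alternative called a member in the TGF-β1 comparison, the replicate block included (0 of 104, lowest adjusted p 0.479, 1 unadjusted p under 0.05). Over all genes that comparison gave 91 calls with DESeq2, 15 without a filter, 335 with the replicate block, 246 with DESeq2 and the replicate block, and 8 to 25 with 1 library left out. The replicate numbers were checked as pairs: deviations of same-numbered libraries correlated at 0.66 over tested genes. Of 14774 genes, 12133 had the same sign in both differences between replicate numbers. The labels do not say what the numbers mark, so the main test leaves them out. The replicate block, which uses them, raised the calls over all genes from 0 to 335 and changed no call of a member. For the nuclear subunits the median log2 fold change with TGF-β1 was 0.036 with DESeq2 and 0.018 with limma, and ran between -0.0063 and 0.076 with 1 library left out; for mitochondrial members that range was -0.24 to 0.045. Between replicate numbers, 14 members passed with DESeq2, 25 with limma, 19 at a threshold of 0.01, and 9 to 22 with 1 library left out (4, 4, 7 and 7 with DESeq2), in fits without the treatment term. Over all genes these counts were 3528, 4101, 4175 and 3011 to 4041 (2440, 2440, 2549 and 2325 with DESeq2). The nuclear median between replicate numbers was 0.089 with RLE scaling, 0.077 with DESeq2, 0.070 without a filter, 0.12 with a filter of 50 counts in 2 libraries, 0.086 without mitochondrial genes in the library sizes, 0.017 with limma, 0.086 without the treatment term, 0.085 with alternate-locus transcripts, and 0.051 to 0.092 with 1 library left out. The mitochondrial median was 0.23 with limma and 0.20 to 0.30 with 1 library left out. As TPM, nuclear members held 2.80% and mitochondrial members 0.370% as means over libraries, against 1.32% and 0.222% of counts, and the ratio was 0.132, against 0.168 on counts. The cause of these shifts was not tested. DESeq2 with the block, DESeq2 with 1 library left out and the alternate-locus transcripts were chosen after seeing the data. With 1 library left out, an arm of 1 library is assumed to vary like the other. MT-ATP8, NDUFA3, NDUFA6 and COX6B2 rested on low counts.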
